A study of Mus musculus with 4 samples.

Results

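The genes described here are 33 genes of glycolysis and of the response to low oxygen, chosen by symbol from a fixed list and followed over 4 arrays of mouse skin. Of the 33, 30 had a named probe among the 19057 genes on the array, 28 were detected on at least 1 array and 24 on all 4. The skin came from mice on the C57Black6/J background, either wild type (WT) or lacking BLT2, a G protein-coupled receptor for leukotriene B4 and related lipids (BLT2KO). The 4 groups were BLT2KO_punched and WT_punched, taken 2 days after the skin was punched, and BLT2KO and WT, which were unwounded. Each group was 1 array hybridised with RNA mixed from 3 mice, taken as biopsies 5 mm across. The spread between mice was therefore not measured, no comparison was tested, and every ratio describes the 2 arrays compared. No probe was named for Ltb4r2, the gene that encodes BLT2, so its loss was not checked here, and the labels used here do not say how the allele was made.

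Glycolysis splits glucose into pyruvate, and cells short of oxygen, or cells that divide or migrate, commonly turn pyruvate into lactate. Hypoxia-inducible factor (HIF) raises the genes of this route: its alpha subunit is hydroxylated by oxygen-dependent enzymes and then degraded, so it accumulates when oxygen falls. HIF binds the core A or G followed by CGTG in promoters of glucose transporters, glycolytic enzymes and others. In wounded skin, oxygen is known to be low at the wound bed, and neutrophils, which rely on glycolysis, enter early.

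Promoters of 4 genes whose wound ratio passed 1.5-fold in at least 1 genotype are printed from the RefSeq table of GRCm38.p6, from 250 bases before to 50 after the gene's start, to show where that core lies. Capitals mark each match to ACGTG or GCGTG on either strand, so that CACGT and CACGC mark matches on the other strand, and overlapping matches run together.
Slc2a1, chr4:119108495-119108794, plus strand: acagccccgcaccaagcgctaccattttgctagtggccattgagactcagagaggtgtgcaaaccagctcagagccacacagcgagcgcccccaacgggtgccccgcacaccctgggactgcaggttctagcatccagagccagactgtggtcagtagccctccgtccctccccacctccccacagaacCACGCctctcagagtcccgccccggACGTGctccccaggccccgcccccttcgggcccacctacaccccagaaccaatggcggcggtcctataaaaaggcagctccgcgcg
Slc16a3, chr11:120948817-120949116, plus strand: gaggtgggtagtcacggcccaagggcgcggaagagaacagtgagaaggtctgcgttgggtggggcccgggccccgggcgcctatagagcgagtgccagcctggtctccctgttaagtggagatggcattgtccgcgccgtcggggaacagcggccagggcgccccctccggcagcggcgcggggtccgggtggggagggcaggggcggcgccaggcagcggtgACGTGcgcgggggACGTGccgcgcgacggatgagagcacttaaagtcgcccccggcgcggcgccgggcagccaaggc
Pfkfb4, chr9:108991652-108991951, plus strand: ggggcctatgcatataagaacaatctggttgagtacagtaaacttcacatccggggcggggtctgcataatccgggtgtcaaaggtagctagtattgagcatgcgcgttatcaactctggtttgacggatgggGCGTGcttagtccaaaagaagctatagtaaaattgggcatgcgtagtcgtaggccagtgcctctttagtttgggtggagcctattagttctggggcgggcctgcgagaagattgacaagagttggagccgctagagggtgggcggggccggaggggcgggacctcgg
Ankrd37, chr8:45999801-46000100, minus strand: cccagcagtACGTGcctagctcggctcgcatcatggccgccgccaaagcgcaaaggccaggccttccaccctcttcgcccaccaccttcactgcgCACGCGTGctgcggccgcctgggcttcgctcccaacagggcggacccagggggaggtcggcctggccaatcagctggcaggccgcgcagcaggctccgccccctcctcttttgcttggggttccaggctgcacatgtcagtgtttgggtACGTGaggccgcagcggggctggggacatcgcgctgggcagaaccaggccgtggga
These windows hold 2, 2, 1 and 4 matches in the order printed. Of the 33 genes, 32 had a window in the table and 30 of them had at least 1 match in at least 1 window. Windows with a match made up 38 of 45 (84.4%) for these genes, against 14380 of 32851 (43.8%) for all genes. The windows also differ in base composition, with a median of 20 CG pairs for these genes and 7 for all genes, and the core contains a CG pair. Gpi1 and Tpi1 had no match in their windows. A match is a description of letters, not a binding site.

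**Figure D1:**
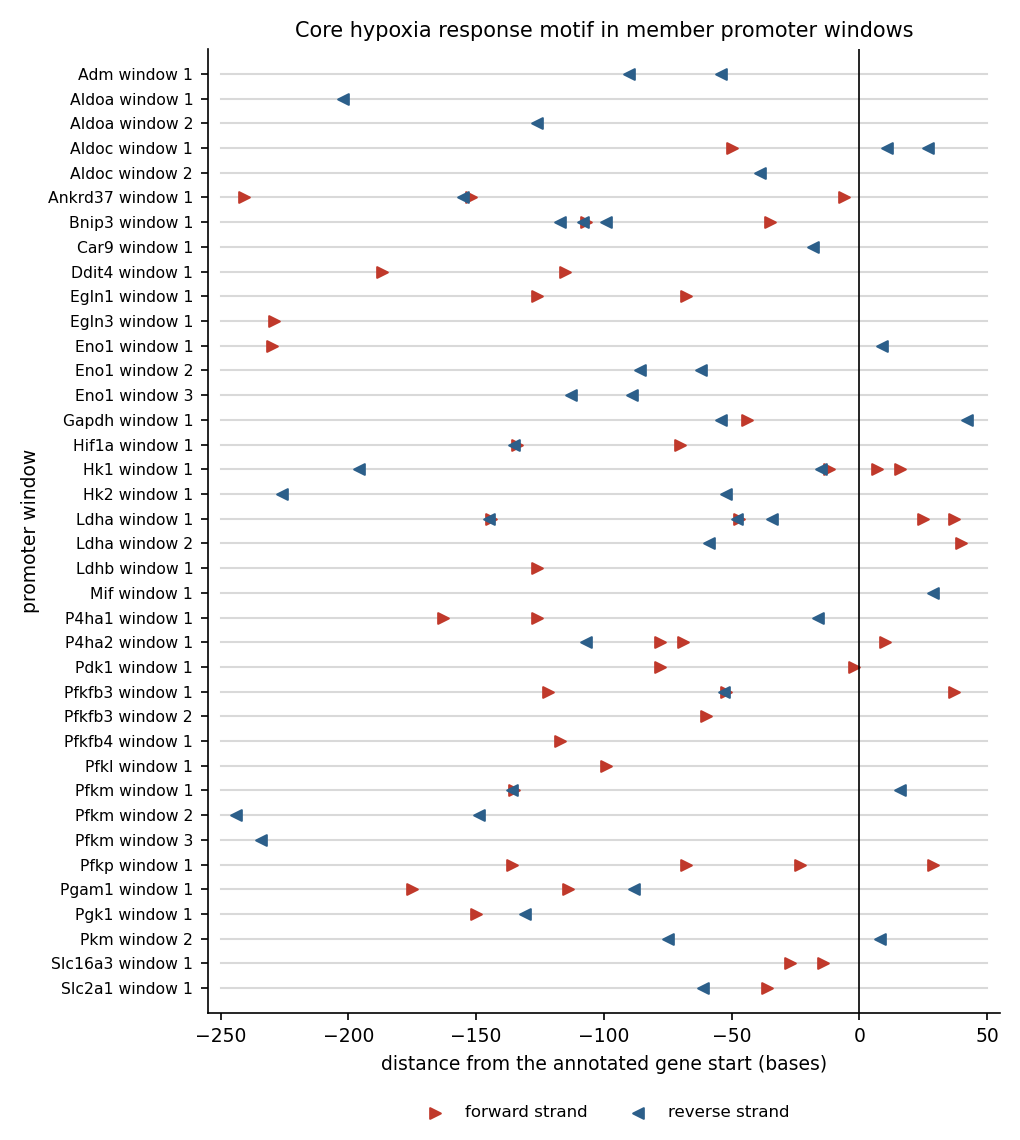
Positions of matches to ACGTG or GCGTG on either strand in promoter windows of the listed genes, by distance in bases from the gene's start, with arrows for the strand of the match. The 38 windows with a match are drawn, the 7 without are not.

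Levels are log2 intensities after background correction and quantile normalization, and each belongs to 1 probe, so they are compared between arrays and not between genes. Detected means a detection p-value under 0.01. Where a gene was detected on 1 of the 2 arrays of a comparison, the other side was set no lower than the lowest detected level of its array, and the ratio is a bound. The technical error of a log2 ratio, taken from disagreement among probes of the same gene, was an SD of 0.28 for BLT2KO_punched against BLT2KO, 0.29 for WT_punched against WT, 0.22 for BLT2KO against WT and 0.19 for BLT2KO_punched against WT_punched. It leaves out the error shared by a whole array and the spread between mice. The arrays were close in detected probes, at 38.0% of 45281 for BLT2KO_punched, 36.5% for WT_punched, 36.6% for BLT2KO and 36.2% for WT. In a biopsy, fewer cells of a type and less RNA per cell cannot be told apart. All 9 fibroblast markers and 10 or 11 of 12 keratinocyte markers were detected on each array, Dsg3 on none and Krt2 on the BLT2KO_punched and BLT2KO arrays alone. At least 16 of 19 skeletal muscle markers were detected on each array, with summed intensities between 114012 and 123840, so muscle RNA was present in all 4 samples.

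Most of the genes differed little between arrays. The largest ratios belonged to glucose uptake, lactate export, a regulator of phosphofructokinase, pyruvate kinase and a few hypoxia targets. In BLT2KO_punched against BLT2KO, 27 genes could be compared. Their median log2 ratio was 0.31, against 0.00 over the 10587 genes compared in all, and 18 lay above 0, beside 5295 of all genes. With all probes of a gene averaged, the median was 0.085, against 0.00, and 16 lay above 0. Of 9 listed genes with several detected probes, 4 had probes of opposite direction. Slc2a1, Pfkfb4, Pkm, P4ha1 and Ankrd37, that is 5 of 27, reached 1.5-fold higher, as did 8.17% of all genes. Over 8 settings, the reported one included, the calls of Pfkfb4 and P4ha1 held in 6 and 5, and the others in all. Settings that change only the detection rule cannot move the ratio of a gene detected on both arrays. Averaging probes cannot move a gene with 1 probe. Counts of settings here and below therefore include some fixed in advance. None of the 27 genes was 1.5-fold lower, against 7.63% of all genes. Ankrd37 was the 1 gene past 2-fold, upward here, as did 3.1% of all genes, and none passed it downward, against 1.71% of all genes.

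In WT_punched against WT, the median over 28 genes was 0.09, against 0.03 over 10382 genes, and 15 lay above 0, beside 5524 of all genes. Slc2a1, Slc16a3 and Pfkfb4 reached 1.5-fold higher, 3 of 28, against 7.47% of all genes, and held in 8, 4 and 7 of the 8 settings. Aldoc was 1.5-fold lower, against 6.57% of all genes. That call held in 3 of 8 settings, namely the reported one and those that change only the detection rule, and in no other. None of the 28 passed 2-fold, against 1.94% of all genes upward and 1.48% downward. When arrays were scaled to a common median in place of quantile normalization, 22 of 27 listed genes lay above 0 in BLT2KO and 22 of 28 in WT, but so did 67.2% and 74.8% of all genes.

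In unwounded skin, BLT2KO was lower than WT for most of the list. The median over 26 genes was -0.20, against -0.01 over 10235 genes, and 5 lay above 0, beside 4862 of all genes. With median scaling 10 of 26 lay above 0, beside 67.5% of all genes. With all probes of a gene averaged, the median was -0.08, against 0.00. Slc2a1, Pkm and Ankrd37 were at least 1.5-fold lower, 3 of 26, against 4.27% of all genes. Over the same 8 settings these calls held in 6 for Slc2a1, 7 for Pkm and 5 for Ankrd37. None was 1.5-fold higher, against 3.37%, and none passed 2-fold, against 1.08% upward and 1.17% downward.

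In BLT2KO_punched against WT_punched, the median over 27 genes was -0.08, against -0.03 over 10540 genes, and 10 lay above 0, beside 4588 of all genes. None of the 27 was 1.5-fold higher, against 2.51% of all genes, or 1.5-fold lower, against 2.38%. None passed 2-fold, against 1.08% upward and 0.541% downward. Because the BLT2KO array enters both the wound comparison of BLT2KO and the unwounded genotype comparison, a value peculiar to that array moves both, in opposite directions. Over the 24 genes detected on all 4 arrays, the BLT2KO array held the lowest level for 14, WT_punched for 6, BLT2KO_punched for 3 and WT for 1. Over the 9111 genes detected on all 4 arrays, BLT2KO was the lowest for 33.1%, WT_punched for 24.1%, BLT2KO_punched for 22.7% and WT for 20.1%.

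**Figure D2:**
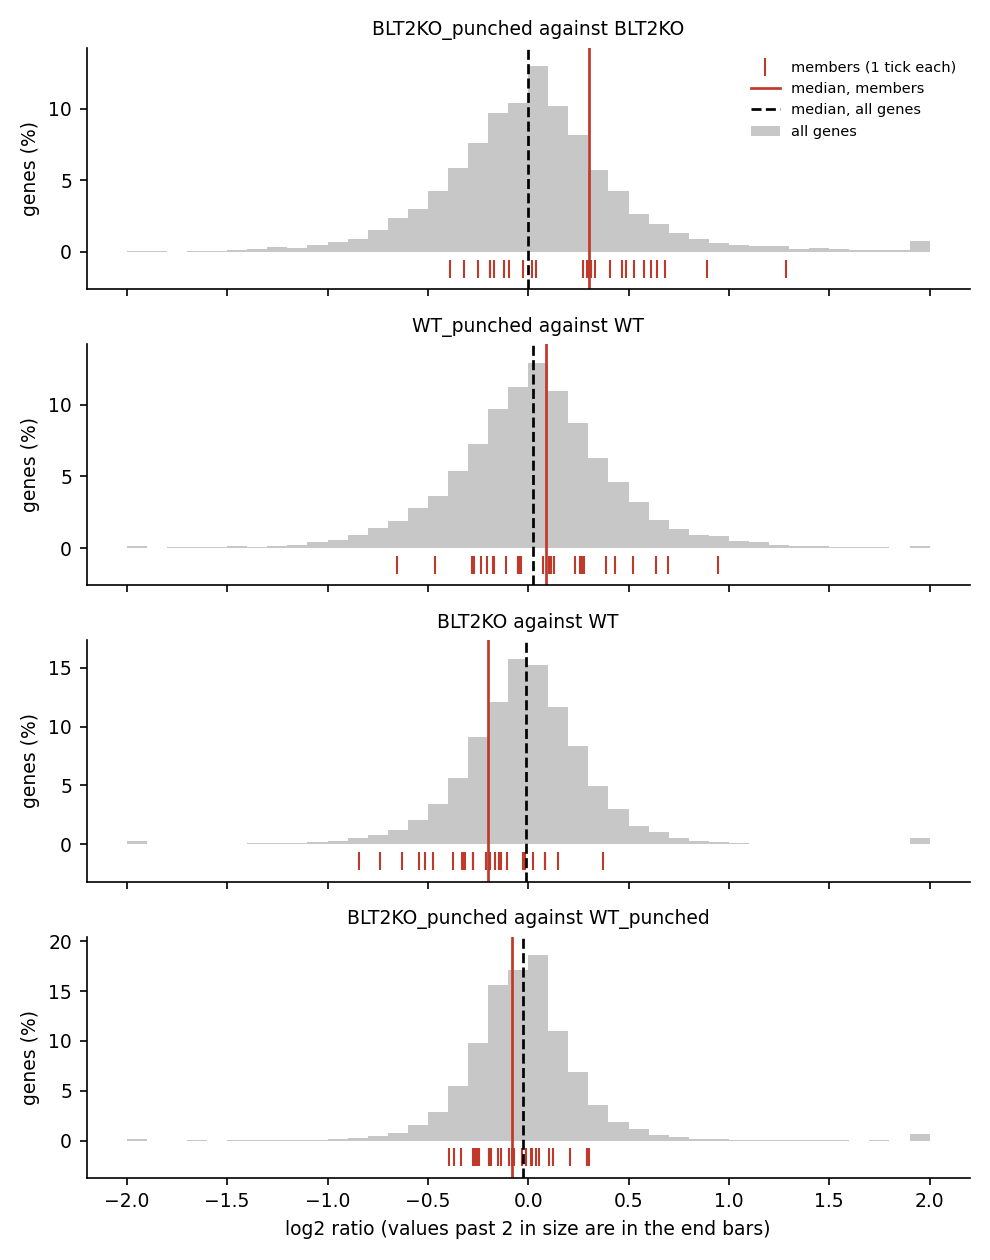
Distribution of log2 ratios in the 4 comparisons, with grey bars for the percent of all genes compared, red ticks for single listed genes (members), a red line at their median and a dashed line at the median of all genes; values past 2 in size are in the end bars. The listed genes' median lies to the right of that of all genes in BLT2KO_punched against BLT2KO (medians 0.31 and 0.00) and to the left in BLT2KO against WT (medians -0.20 and -0.01).

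The oxygen-sensing genes showed small differences that depended on the scaling and the probe. Hif1a, the alpha subunit of HIF, had log2 levels of 5.48 in BLT2KO_punched, 5.36 in WT_punched, 5.50 in BLT2KO and 5.82 in WT. Its protein is controlled largely by degradation, so transcript levels do not report its activity. Egln1, the prolyl hydroxylase that marks HIF for degradation, had 5.99, 6.19, 6.38 and 6.24 in the same order. Egln3, a related hydroxylase that is itself a HIF target, had 9.05, 9.01, 9.30 and 9.22. By the probes that stood for them, all 3 were lower in punched than in unwounded skin of both genotypes. Their log2 ratios lay between -0.39 and -0.02 in BLT2KO and between -0.47 and -0.05 in WT. Only the lowest of each range, Egln1 in BLT2KO and Hif1a in WT, exceeded the probe-pair SD. With median scaling Hif1a in BLT2KO and Egln1 and Egln3 in WT turned to the other side of 0. In BLT2KO_punched against BLT2KO, another Egln1 probe gave 0.005, and an Egln3 probe detected on BLT2KO_punched alone gave 0.62.

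The transporters were higher in punched skin of both genotypes. Slc2a1 encodes the main glucose transporter of keratinocytes. Its log2 levels were 10.92 in BLT2KO_punched, 11.29 in WT_punched, 10.02 in BLT2KO and 10.65 in WT, so both punched arrays lay above both unwounded ones. That was 1.86-fold higher in BLT2KO_punched than in BLT2KO and 1.55-fold higher in WT_punched than in WT, and BLT2KO was 1.54-fold lower than WT without a wound. Slc16a3, the lactate exporter of glycolytic cells, was detected only on the punched arrays, at 5.78 in BLT2KO_punched and 6.17 in WT_punched. It was at least 1.49-fold higher in BLT2KO_punched than in BLT2KO and at least 1.92-fold higher in WT_punched than in WT. The level is low, and over the alternatives the ratio ranged from 0.00 to 1.08 on the log2 scale in BLT2KO and from 0.03 to 1.39 in WT, lowest when all its probes were averaged.

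**Figure D3:**
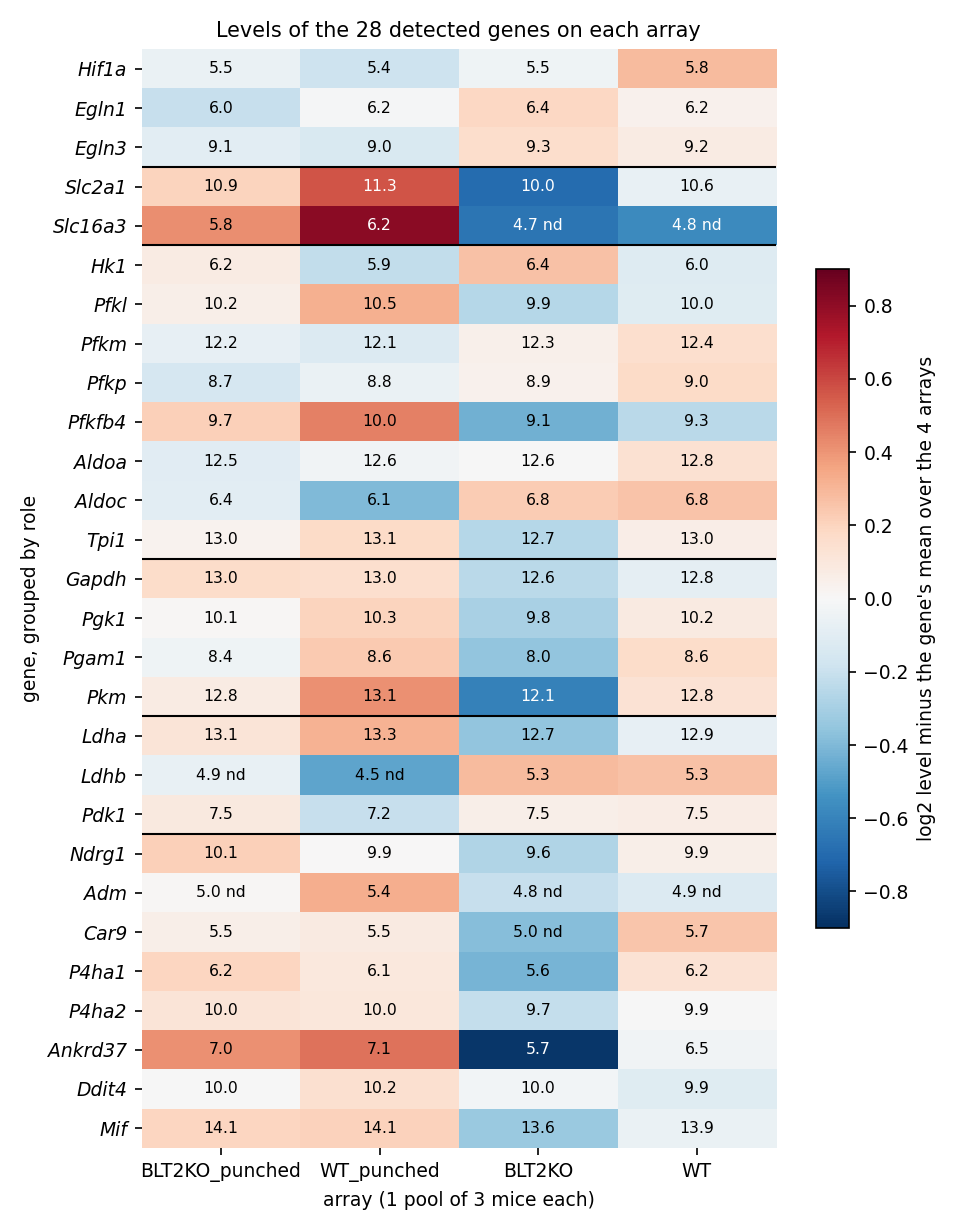
Level of each listed gene on the 4 arrays as a log2 difference from its own mean over the arrays, with genes grouped by role the log2 level printed in each cell and nd for not detected. Slc2a1 and Pfkfb4 are higher on both punched arrays than on both unwounded arrays, as are Pfkl, Gapdh, Ldha, Mif, Ankrd37 and others.

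In the preparatory stage of glycolysis, which spends ATP to split glucose, most enzymes differed by less than 1.5-fold, and Pfkfb4 and, in WT, Aldoc passed it. Pfkfb4 sets the level of the activator of phosphofructokinase. Its log2 levels were 9.75 in BLT2KO_punched, 9.99 in WT_punched, 9.11 in BLT2KO and 9.30 in WT. Both punched arrays lay above both unwounded ones, by 1.56-fold in BLT2KO and 1.62-fold in WT. The liver-type phosphofructokinase Pfkl was 10.20, 10.47, 9.89 and 10.04 in the same order, a log2 ratio of 0.31 in BLT2KO and 0.43 in WT, but a dimmer probe for it went the other way. The muscle-type Pfkm and the platelet-type Pfkp were slightly lower after punching in both genotypes, at -0.12 and -0.19 in BLT2KO and -0.28 and -0.23 in WT. Probes disagreed in WT, where another Pfkm probe gave 0.02 and another Pfkp probe 0.48. Aldoa, the main aldolase, was at -0.10 and -0.17, and Hk1, the constitutive hexokinase, was at -0.19 and -0.11. With median scaling Aldoa in both genotypes, Pfkm in BLT2KO, Pfkp in both and Hk1 in WT turned slightly above 0. Aldoc, an aldolase best known from brain, was 1.57-fold lower in WT_punched than in WT and 1.25-fold lower in BLT2KO_punched than in BLT2KO, at levels of 6.13 to 6.79. Tpi1, which interconverts the triose phosphates, had 12.97, 13.11, 12.68 and 13.00, within 0.29 in BLT2KO and 0.11 in WT. Its other probes disagreed in direction.

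The payoff stage, which makes ATP and pyruvate, had a common direction. By the probes that stood for them, Gapdh, Pgk1, Pgam1 and Pkm were each higher in punched skin in both genotypes under every scaling run. Each was also lower in BLT2KO than in WT without a wound under every scaling run. The wound ratio of Pgk1 in WT turned to -0.01 when its probes were averaged. Pkm, pyruvate kinase, had log2 levels of 12.78 in BLT2KO_punched, 13.12 in WT_punched, 12.10 in BLT2KO and 12.84 in WT. The BLT2KO array was the lowest, and Pkm was 1.60-fold higher in BLT2KO_punched than in BLT2KO and 1.67-fold lower in BLT2KO than in WT, while WT_punched was 1.21-fold higher than WT. A dimmer Pkm probe was detected on the punched arrays alone. After punching it gave log2 ratios of 0.83 in BLT2KO and 0.89 in WT. In BLT2KO against WT it gave 0.115, with neither array detected, and in BLT2KO_punched against WT_punched 0.055, where the first probe gave -0.34. Gapdh had 13.00, 12.99, 12.59 and 12.76, Pgk1 had 10.14, 10.32, 9.83 and 10.21, and Pgam1 had 8.35, 8.63, 8.04 and 8.56. Their log2 ratios after punching were 0.31 to 0.41 in BLT2KO, above its probe-pair SD, and 0.07 to 0.23 in WT, below its own. Gapdh, Pgk1 and related genes have many near-identical copies in the genome. The probe sequences were not compared with them here.

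For the fate of pyruvate, Ldha, which makes lactate, had log2 levels of 13.14 in BLT2KO_punched, 13.33 in WT_punched, 12.67 in BLT2KO and 12.95 in WT. It was higher in punched skin of both genotypes, 1.38-fold in BLT2KO and 1.31-fold in WT. Pdk1, the kinase that keeps pyruvate out of the mitochondrion, had 7.52, 7.22, 7.48 and 7.49 and showed no common direction. Ldhb, the isoform that favours pyruvate, was detected only on the unwounded arrays, at 5.27 in BLT2KO and 5.25 in WT, close to the lowest detected levels.

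Among the other hypoxia targets, Ankrd37, an ankyrin repeat protein and HIF target, showed the largest ratio among listed genes detected on both arrays of a comparison. Its log2 levels were 6.98 in BLT2KO_punched, 7.07 in WT_punched, 5.70 in BLT2KO and 6.55 in WT. It was 2.44-fold higher in BLT2KO_punched than in BLT2KO, 1.43-fold higher in WT_punched than in WT, and 1.80-fold lower in BLT2KO than in WT. The punched arrays were nearly equal and the BLT2KO array lay apart from the others. Over the alternatives its wound ratio in BLT2KO ranged from 0.66 to 1.42 on the log2 scale, so the 2-fold call did not hold under all of them. P4ha1, a catalytic subunit of the enzyme that hydroxylates collagen, had 6.23, 6.12, 5.61 and 6.16, which is 1.53-fold higher after punching in BLT2KO. Another probe for P4ha1 was undetected in WT and gave a difference of 1.19 between WT_punched and WT, so the probes disagree on the WT response. They also disagree on the unwounded genotypes, where BLT2KO against WT was -0.54 by the first probe and 0.38 by the other. P4ha2, a relative of P4ha1, had 10.04, 10.02, 9.71 and 9.92, or log2 ratios after punching of 0.33 in BLT2KO and 0.10 in WT. A dimmer P4ha2 probe, detected on all 4 arrays, went the other way, at -0.09 in BLT2KO and -0.25 in WT.

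Mif, a macrophage migration inhibitory cytokine, had 14.12, 14.13, 13.59 and 13.86, or 1.44-fold higher in BLT2KO_punched and 1.20-fold higher in WT_punched than in the matching unwounded skin, and its other probe went the same way. Ndrg1, a stress-responsive protein, had 10.09, 9.88, 9.61 and 9.94. Ddit4, an inhibitor of mTOR signalling, moved by 0.02 in BLT2KO and 0.26 in WT. Car9, a carbonic anhydrase that exports acid, was detected on 3 arrays at 5.47 in BLT2KO_punched, 5.50 in WT_punched and 5.67 in WT, and not in BLT2KO, which was at least 1.39-fold lower than WT. Adm, the vasodilator adrenomedullin, was detected on WT_punched alone, at 5.36, near the lowest detected level. Pfkfb3 and Bnip3 were not detected on any array. Hk2, Gpi1 and Eno1 had no named probe.

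**Figure D4:**
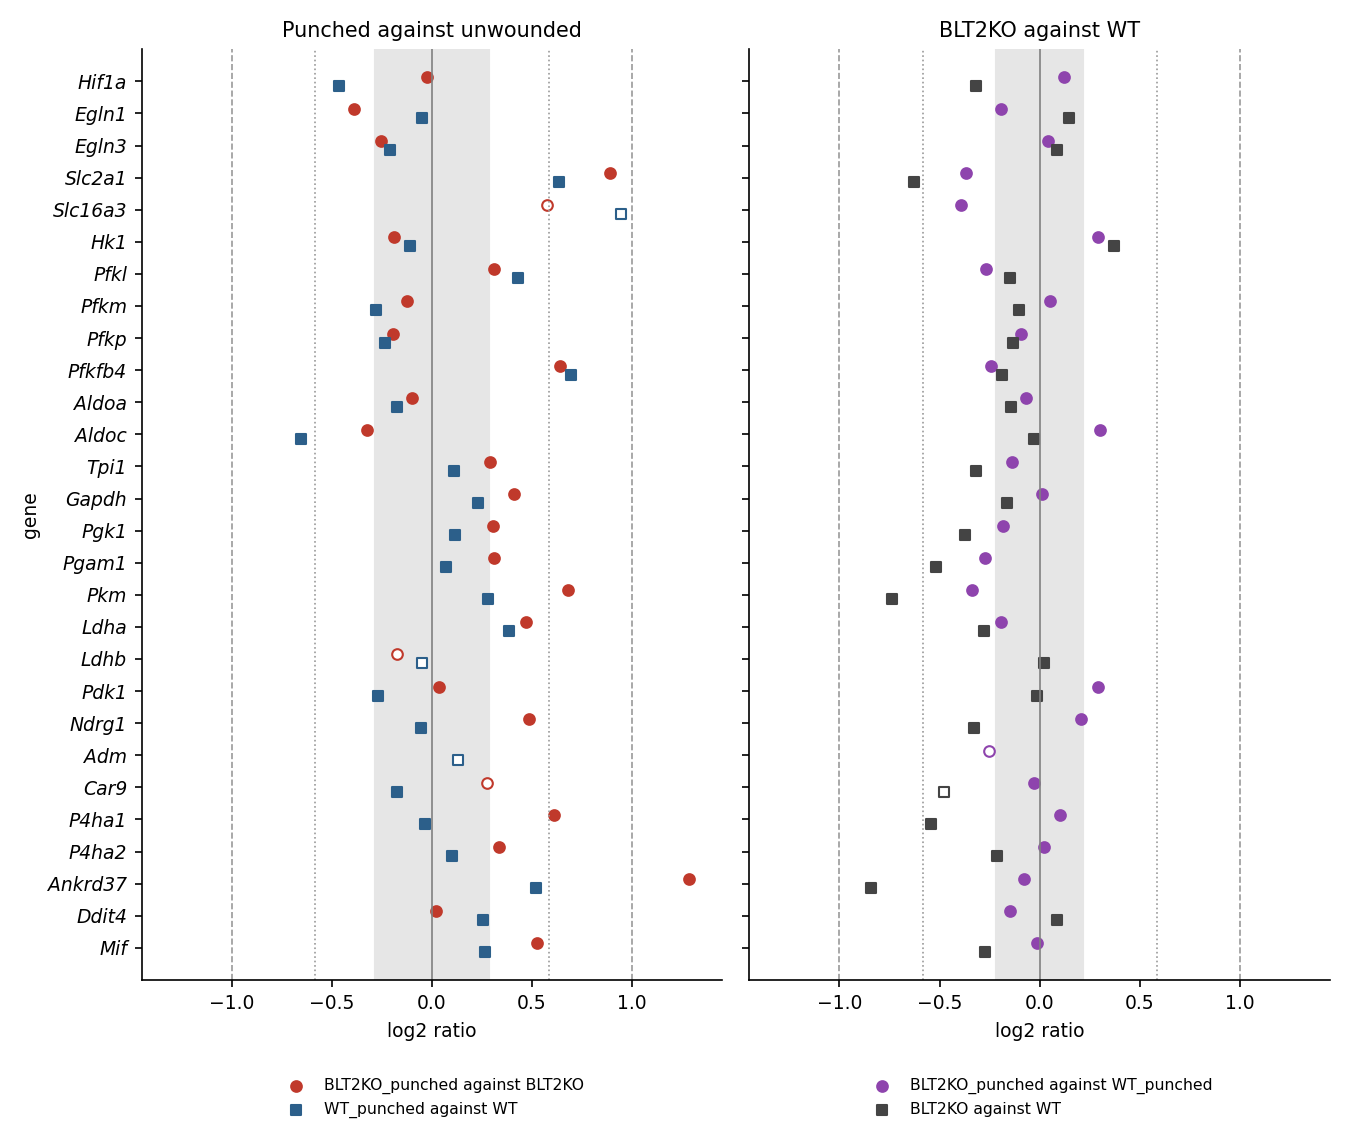
Log2 ratios of each listed gene in the 4 comparisons, with open symbols for bounds, dotted lines at 1.5-fold, dashed lines at 2-fold and a grey band for the larger probe-pair SD of each panel. In BLT2KO_punched against BLT2KO, 1 gene, Ankrd37, passes 2-fold higher, and in the other comparisons none does.

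The difference between the wound responses of the genotypes could be taken for 24 genes detected on all arrays. Its median was 0.18 (BLT2KO minus WT), against -0.003 over 9111 genes, and 18 were above 0, beside 4510 of all genes. At 1.5-fold, 2 genes had a larger response in BLT2KO, against 4.14% of all genes, and 0 in WT, against 3.27%. At 2-fold there was none, against 1.17% of all genes larger in BLT2KO and 0.571% larger in WT. The 2 genes past 1.5-fold were Ankrd37 at 0.76 and P4ha1 at 0.65. Neither value has a replicate, the Ankrd37 value ranged down to 0.35 and passed 1.5-fold in 5 of 8 settings, and the P4ha1 value was 0.10 when all its probes were averaged and passed in 4 of 8. By the probes that stood for these genes, the BLT2KO array was the lowest of the 4 for both. The punched arrays differed by -0.08 for Ankrd37 and 0.10 for P4ha1. The other P4ha1 probe was lowest in WT instead, at 5.09 and undetected, with 5.47 in BLT2KO.

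Of 20 isoforms and transporters in a further list, 17 had a probe and 7 were compared. Slc2a3 and Hk3 held larger responses. They were the 2 of 7 past 2-fold upward after punching, against 3.1% of all genes in BLT2KO and 1.94% in WT. The median log2 ratio of the 7 was -0.006 in BLT2KO and -0.056 in WT, and 4 lay below 0 in each. Slc2a3, the high-affinity glucose transporter of neurons and white blood cells, had log2 levels of 9.80 in BLT2KO_punched, 9.54 in WT_punched, 6.77 in BLT2KO and 8.28 in WT. It was 8.19-fold higher in BLT2KO_punched than in BLT2KO, 2.41-fold higher in WT_punched than in WT, and 2.85-fold lower in BLT2KO than in WT. Hk3, a hexokinase of white blood cells, had 8.84, 9.10, 6.48 and 7.46, and was 5.14-fold and 3.11-fold higher after punching in BLT2KO and WT. Both were lowest in BLT2KO. The other 5 genes of the list compared were within 2-fold in every comparison.

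Neutrophil markers, read by a list of 13 genes of which 11 had a probe, differed in the same comparisons. S100a8 and S100a9, on that list, are also made by wounded keratinocytes. All 10 markers compared were at least 2-fold higher in BLT2KO_punched than in BLT2KO, with a median log2 ratio of 2.78, and 6 of 10 in WT_punched than in WT, with a median of 1.06. In unwounded skin, 8 of 10 were at least 2-fold lower in BLT2KO than in WT, with a median of -1.73. Their summed intensity was 32989 in BLT2KO_punched, 33900 in WT_punched, 5750 in BLT2KO and 18053 in WT. Mmp8 was not detected on any array. Macrophage markers had sums of 33064, 35349, 19562 and 25578, and endothelial markers 2700, 3049, 1982 and 2343. BLT2KO was thus the lowest array for these 3 marker lists, for Slc2a3 and Hk3, and for 14 of 24 listed genes, against 33.1% of all genes. The part of cell numbers in these values was not tested.

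**Figure D5:**
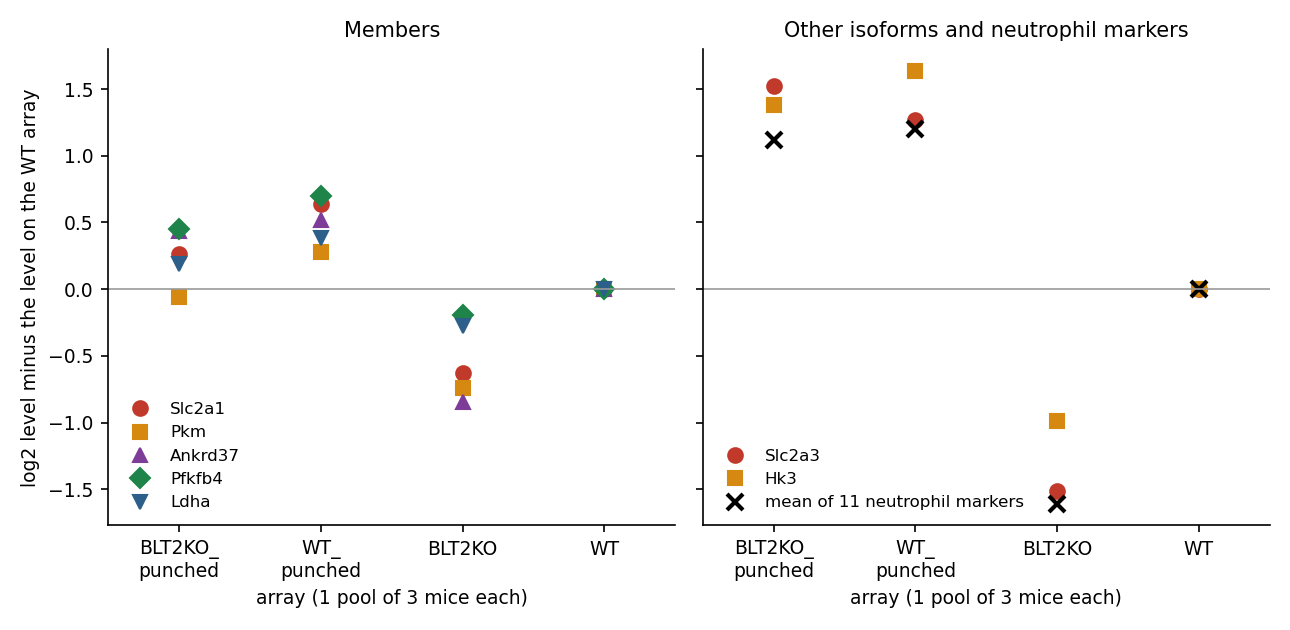
Log2 levels relative to the WT array of 5 listed genes (left) and of Slc2a3, Hk3 and the mean of 11 neutrophil markers (right), for the arrays BLT2KO_punched, WT_punched, BLT2KO and WT. The BLT2KO array lies below WT for all of them, and the vertical axis is the same in both panels.

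Hair markers set the arrays apart as well, with a summed intensity of 66635 in BLT2KO_punched, 2010 in WT_punched, 67366 in BLT2KO and 9528 in WT. Every one of the 13 hair markers compared was at least 2-fold higher in BLT2KO than in WT, both punched and unwounded. The part of this in the genotype ratios above was not tested. Skeletal muscle markers had nearly equal sums but moved singly. In WT_punched against WT, 5 of 19 passed 2-fold upward and 2 downward. Tnnc1 and Tnnt1, troponin subunits of slow muscle, were higher there by log2 ratios of 4.51 and 3.11, and Myh1, a fast myosin, was 4.75-fold lower. In BLT2KO_punched against BLT2KO, 2 of 17 were 2-fold higher and 2 lower. Myl2, a slow myosin light chain, was 28.4-fold lower in BLT2KO_punched than in WT_punched, where 4 of 19 markers were 2-fold lower. The part of muscle in the ratios of the listed genes was not tested. Adipocyte markers had sums of 2978, 6620, 6695 and 6047, keratinocyte markers 84078, 87754, 103360 and 93474, and fibroblast markers 31318, 28236, 39704 and 34330. The adipocyte sum was higher in BLT2KO than in WT, yet 5 of the 7 markers compared were lower there, with a median log2 ratio of -0.10. Car3, a bright marker, was 1.55-fold higher in BLT2KO than in WT. Erythroid markers had sums of 12709, 17756, 13011 and 9006. Hba-a1 was by far the brightest, at a log2 level of 13.58 in BLT2KO_punched against 7.36 for Alas2 and 8.04 for Slc4a1, so the sums mainly follow it. The markers disagreed in BLT2KO_punched against WT_punched, where Slc4a1 was 3.12-fold higher, Alas2 1.66-fold lower and Hba-a1 1.42-fold lower.

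The HIF regulators outside the list were within 2-fold: of 12 compared, 0 passed it in the wound comparison of either genotype. Egln2, another HIF hydroxylase, was lower after punching, by a log2 ratio of -0.68 in BLT2KO and -0.60 in WT. Epas1, another HIF alpha subunit, went opposite ways, at -0.29 in BLT2KO and 0.52 in WT. Of the other hypoxia targets, 26 were compared. In BLT2KO_punched against BLT2KO, 3 passed 2-fold upward and 2 downward, against 3.1% and 1.71% of all genes. In WT_punched against WT, 3 passed it upward and 0 downward, against 1.94% and 1.48%. The medians of these 26 genes were 0.05 and 0.06 in the 2 comparisons, against 0.00 and 0.03 over all genes. Cxcr4, a chemokine receptor, was 2.42-fold and 2.02-fold higher in the punched skin of BLT2KO and WT. Plod2, a collagen lysyl hydroxylase, was 2.13-fold higher in BLT2KO_punched than in BLT2KO, and was detected in WT_punched but not in WT. Stc1, the hormone stanniocalcin, was 2.49-fold lower in BLT2KO_punched than in BLT2KO, and Rora, a nuclear receptor, was 2.12-fold lower in the same comparison. Hmox1, heme oxygenase, had 9.33 in BLT2KO_punched, 9.81 in WT_punched, 8.26 in BLT2KO and 8.56 in WT, higher on both punched arrays. Vegfa, the vascular growth factor, had log2 levels of 7.41 in BLT2KO_punched, 8.17 in WT_punched, 7.31 in BLT2KO and 7.43 in WT, so WT_punched was the highest array, 1.66-fold above WT, and BLT2KO_punched was 1.69-fold below it.

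The listed genes were also described by brightness, in a split chosen after the values were seen. Of those detected on both arrays, 11 had a mean log2 level of at least 10. Their median was 0.31 in BLT2KO_punched against BLT2KO and 0.26 in WT_punched against WT, where all genes as bright had 0.01 and 0.02. Below 10, the listed genes' medians were 0.04 and -0.08, where all genes had -0.003 and 0.03. The part of brightness in these medians was not tested.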

How the data were processed

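The deposited values were non-normalized intensity (linear) with a detection p-value for each probe, for 45281 probes on each of 4 arrays, per the file headers. Illumina MouseWG-6 BeadChips were read with BeadStudio, per the labels' protocols. The authors also deposited processed intensity values, which were the non-normalized ones multiplied by a single constant on each array (0.95 for BLT2KO_punched, 0.963 for WT_punched, 1.12 for BLT2KO and 1.24 for WT). The sources used here do not give the reason for the scaling.

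The intensities were corrected by normexp (limma 3.58.1, R 4.3.3, offset 16, background from 936 negative control probes implied by the detection p-values), quantile-normalized and log2-transformed here. Further work used Python 3.11.15, numpy 2.4.6, pandas 2.3.3 and matplotlib 3.10.9, and the ratio step was tested on simulated data. Platform annotation named 1 gene for 34885 probes, and 34807 matched RefSeq GRCm38.p6. The probe with the highest mean stood for a gene. A gene entered a comparison when detected at p under 0.01 on at least 1 of its 2 arrays. The floor was 5.10 for BLT2KO_punched, 5.20 for WT_punched, 5.20 for BLT2KO and 5.23 for WT. Genes were called at 2-fold, with 1.5-fold as an alternative. With 1 array a group nothing was tested, and the number of arrays limits precision. Every listed gene is named; of other lists, genes with the largest ratios. The genes and lists were chosen with earlier results of these data known. The sequence of each promoter is credited to RefSeq.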

Additional observations from a re-analysis of the deposited data

Results flagged for a closer look

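Ndrg1 differed between the genotypes in opposite directions by wound state. BLT2KO_punched was above WT_punched by 0.21 and BLT2KO was below WT by a log2 ratio of -0.33, a gap of 0.538 on the log2 scale. The other probe for Ndrg1 gave 0.30 and -0.10, the second of these within the technical SD of 0.22 for BLT2KO against WT. Over the settings run, the ratio of Ndrg1 in BLT2KO against WT ranged from -0.33 to -0.15. Each ratio is 1 array against 1 array, and the difference was not tested.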

How the results depend on the processing

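The 4 medians and the median difference of wound responses kept their direction under the alternatives run, with ranges of 0.09 to 0.51 for BLT2KO_punched against BLT2KO, 0.02 to 0.32 for WT_punched against WT, -0.20 to -0.03 for BLT2KO against WT, -0.08 to -0.02 for BLT2KO_punched against WT_punched and 0.05 to 0.18 for the difference. Median scaling also moved the median of all genes, to 0.16, 0.25, 0.12 and 0.03 in the 4 comparisons, and relative to it the listed genes ranged over all alternatives from 0.09 to 0.35, 0.02 to 0.07, -0.19 to -0.08 and -0.06 to -0.04. The relative values of 0.09 in BLT2KO_punched against BLT2KO and -0.08 in BLT2KO against WT came from averaging all probes of a gene. Under median scaling, 10 of 26 listed genes lay above 0 in BLT2KO against WT, against 5 of 26 in the reported setting, beside 67.5% of all genes. The count of genes past 2-fold in BLT2KO_punched against BLT2KO, 1 in the reported setting, was 0 with no background correction, with an offset of 50 and with the authors' processed values, 2 with median scaling and with no detection filter, and 5 at 1.5-fold. In WT_punched against WT it was 2 with median scaling, 1 with a detection p-value under 0.05, 1 with no detection filter and 4 at 1.5-fold, against 0 reported. In BLT2KO against WT it was 3 at 1.5-fold. Calls at 1.5-fold that did not hold in every setting were those of Pfkfb4 and P4ha1 in BLT2KO_punched against BLT2KO, of Slc16a3, Pfkfb4 and Aldoc in WT_punched against WT, and of Slc2a1, Pkm and Ankrd37 in BLT2KO against WT. The causes were not tested. Of 924 values of single genes under an alternative, 860 stayed within the technical SD and 64 moved by more. Part of the 860 was fixed in advance, because alternatives that change only the detection rule leave most ratios unchanged. Averaging all probes of a gene moved 26 values and left 106 within the SD. A change of sign was counted only for ratios past 2-fold in the reported setting. That was Ankrd37 in BLT2KO_punched against BLT2KO alone, which ranged from 0.66 to 1.42, so the count says nothing about the other genes. Smaller ratios did cross 0. In WT_punched against WT, Pfkl ranged from -0.15 to 0.76 and Tpi1 from -0.13 to 0.39. No paired analysis was possible because each group was 1 array and the groups share only replicate number 1. Signal near background limits Hif1a, Slc16a3, Ldhb, Adm and Car9.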

Other observations

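Genes of the pyruvate dehydrogenase complex, its kinases and phosphatases, and pyruvate carboxylase were compared as a list of 10. Of these, 9 were below 0 in BLT2KO_punched against BLT2KO, beside 5096 of 10587 genes, with a median log2 ratio of -0.28. In WT_punched against WT, 8 were below 0, beside 4806 of 10382 genes, with a median of -0.33. The carriers that bring pyruvate into mitochondria, Mpc1 and Mpc2, had no named probe. Pdk4, a kinase that inhibits pyruvate dehydrogenase, had log2 levels of 8.49 in BLT2KO_punched, 8.64 in WT_punched, 10.19 in BLT2KO and 9.93 in WT, and was 3.25-fold and 2.44-fold lower after punching in BLT2KO and WT. Pdp1, the phosphatase that acts against it, had 5.23, 5.53, 6.01 and 6.19. Among genes of the pentose phosphate route and gluconeogenesis, Fbp2, a fructose bisphosphatase of muscle, was 2.17-fold and 2.28-fold lower after punching in BLT2KO and WT, and Fbp1, its liver relative, was 2.84-fold higher in BLT2KO than in WT and was not detected on WT_punched.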
